A study of Rattus norvegicus with 8 samples.

Results

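The insulin-like growth factor axis was followed across 4 groups of rat C6 glioma cells, an established line that keeps traits of glia. It comprised every probe set of the array annotated to the ligands Igf1 and Igf2, the receptors Igf1r and Igf2r, or the binding proteins Igfbp2, Igfbp3, Igfbp4, Igfbp5 and Igfbp6. The rule found 23 probe sets of 8 genes among 8740 probe sets without the array's controls (4736 named genes), and no probe set was annotated to Igfbp4. The groups, taken from the sample titles, were C6slow, C6fast, C6SPGFPslow and C6SPGFPfast, with 2 arrays each and 8 arrays in all. The labels name the cell line and migration as the subject, but do not explain C6SPGFP, how fast and slow cells were obtained, or whether arrays of a group came from separate cultures. The p-values therefore rest on the spread between these arrays alone, and that spread may be technical.

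IGF-I and IGF-II are secreted growth factors that act through the IGF-I receptor, a tyrosine kinase that signals through the PI3K-Akt and Ras-MAP kinase branches to growth, survival and movement of cells. The IGF-II receptor, also the cation-independent mannose 6-phosphate receptor, takes IGF-II up for breakdown and carries lysosomal enzymes. The binding proteins hold the ligands outside the cell and can block or prolong their action, and in brain, glia are among the cells that make these proteins.

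Values are probe set signals after quantile normalisation, on a linear scale without a background call, so nothing shows that a signal of a few units exceeds background. A probe set was tested where its mean signal over the 8 arrays was at least 8, which 18 of the 23 passed. Changes are differences of log2(signal + 8), and a probe set was called, and is said to have risen or fallen, where limma's adjusted p (Benjamini-Hochberg over all 6684 probe sets tested) was below 5%. A fold is that of signal plus 8 and understates the change of low signals. Signals of different probe sets are not on one scale, so levels are compared only within a probe set. With 2 arrays per group, the number of arrays limits the precision, and in these bulk samples fewer cells expressing a gene and less RNA per cell cannot be told apart.

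The deposited signal had a 2% trimmed mean of 100.1 to 105.8 on 7 arrays and of 500.5 on C6SPGFP fast replicate 1, and results are given below with and without that array where a call depended on it. Pearson's r of log2 signals was 0.9693 to 0.9778 between arrays of a group and 0.8995 to 0.9391 between C6 fast arrays and those of the other groups. Vim, the intermediate filament vimentin, had signals from 2594 to 3831. Nestin (Nes), of immature glia, and S100b, of astroglia, fell in C6 fast cells, with log2 changes of -1.98 and -2.50, to signals of 190 and 280 and of 56.8 and 74.9. No probe set was named for Gfap, and the astrocyte water channel Aqp4 did not exceed 6.7. S100b was higher in C6SPGFP than C6 cells, by 1.57 among slow and 4.11 among fast cells. Nes and Vim were called higher in C6SPGFP among fast cells only (1.70 and 0.48). The astroglial markers Glul and Gja1 went the other way, by -1.38 and -1.57 among slow and -0.68 and -1.17 among fast cells. Glul also fell in C6 fast cells (-0.85). Of the microglial and macrophage markers, given because such cells make Igf1, 10 had a probe set and 6 were tested. Itgam, C1qb and Cd74 stayed at or below 5.5 on every array and Lyz2 at or below 15.7, while Ptprc ranged from 28.4 to 48.3, Aif1 from 6.8 to 16.4, Csf1r from 4.9 to 22.3 and Cd14 from 90.6 to 291.9. The 10 summed to 2302 to 2501 in C6 slow, 1832 to 2123 in C6 fast, 2065 to 2167 in C6SPGFP slow and 2488 to 3199 in C6SPGFP fast cells, most of which was Spp1 (1607 to 2841). Cd37 rose in C6 fast cells, by 1.41, where Cd14 and Spp1 had lower means (178 against 109 and 2131 against 1724) without a call. Between fast cells of the sets, Cd37 was lower in C6SPGFP (-1.10) and Cd14 and Spp1 were higher (1.02 and 0.53). Of 8 tested fibroblast and meningeal markers, Col1a1 fell in C6 fast cells (-0.75) and Fn1 rose in C6SPGFP fast cells (0.90). Pdgfra was higher in C6SPGFP at both speeds (1.33 and 1.36), Fn1 was lower there in slow cells (-0.65), and Col1a1 and Col3a1 were higher in fast cells (1.17 and 0.99). The 9 markers of this list summed to 2233 to 2553 in C6 slow, 2020 to 2141 in C6 fast, 2432 to 2534 in C6SPGFP slow and 3121 to 3442 in C6SPGFP fast cells. Of 7 tested neuronal markers, Uchl1 fell in C6 fast cells (-0.67) and Gap43 was higher in C6SPGFP than C6 fast cells (0.94). The 6 tested markers of endothelial and mural cells gave no call in limma (lowest adjusted p = 0.109, with 1 at an unadjusted p below 0.05 in each of 2 comparisons).

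The hexokinase 3'/5' ratio, a measure of RNA integrity, was 2.23 and 1.88 in C6 slow, 1.98 and 1.57 in C6 fast, 1.72 and 1.49 in C6SPGFP slow and 1.72 and 1.61 in C6SPGFP fast cells. The same ratio of Gapdh ran from 0.967 to 1.05 over the arrays and that of beta-actin from 1.01 to 1.12. The part of these marker and ratio differences in the results below was not tested.

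The comparison of fast with slow cells asked which transcripts of the axis differ between cells titled fast and cells titled slow. In C6, Igfbp5 fell on both tested probe sets, while Igf2r and 1 of 5 probe sets of Igf1 rose. In C6SPGFP, Igfbp5 fell again on 1 of its probe sets and Igfbp3 fell with it, and neither ligand nor receptor passed the test. Of the 18 probe sets, 4 were called in C6, from 3 genes, 2 in each direction, against 6.66% of all probe sets tested (2.69% higher and 3.96% lower). In C6SPGFP 2 of 18 were called, both lower, against 1.39% of all (1.06% higher and 0.329% lower). One of these, Igfbp3, had passed the filter only through C6SPGFP slow cells and so had to differ. The other, Igfbp5 on M62781_at, was also called in C6. Its fast means lay under the filter in both sets, so it was tested only through slow cells. The arrays of fast and slow cells did not overlap for 12 of 18 in C6, against 45.1% of all, and for 5 of 18 in C6SPGFP, against 44.1%. The median change of the 18 was 0.14 in C6 and -0.09 in C6SPGFP, against 0.01 and -0.02 over all, and the median size of change was 0.38 and 0.19, against 0.25 and 0.20. The members had no common direction in C6, where 11 were higher and 7 lower in fast cells, and in C6SPGFP 6 were higher and 12 lower.

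**Figure D1:**
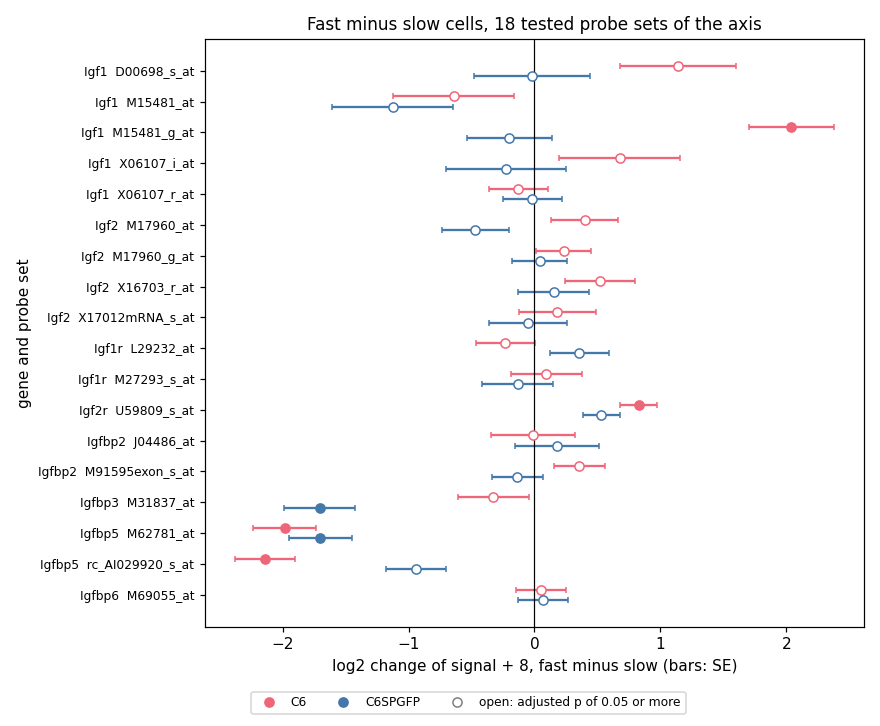
The log2 change of signal + 8 from slow to fast cells (x axis) is shown for the 18 tested probe sets (y axis) in C6 (red) and C6SPGFP (blue), with SE as bars; filled points have an adjusted p below 0.05. Both Igfbp5 probe sets lie left of 0 in both sets of cells, Igf2r lies right of 0 in both, and the probe set M15481_g_at of Igf1 lies at 2.04 in C6 and at -0.20 in C6SPGFP.

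Igfbp5, a binding protein that also attaches to extracellular matrix, was the member with the largest decrease in C6. The signal of probe set M62781_at was 47.1 and 47.4 in C6 slow, 6.44 and 5.51 in C6 fast, 31.8 and 41.2 in C6SPGFP slow and 3.67 and 7.89 in C6SPGFP fast cells. Every slow array was thus at least 31.8 and every fast array at most 7.89, without overlap in either set. The fast means, 5.98 in C6 and 5.78 in C6SPGFP, lay under the filter of 8. This probe set was therefore tested only through the slow cells, the groups in which it was high. The change was -1.98 ± 0.25 (SE, n = 2 per group; 3.95-fold; limma adjusted p = 0.00176) in C6 and -1.70 ± 0.25 (3.25-fold; adjusted p = 0.0143) in C6SPGFP. The difference of the 2 changes was 0.28 ± 0.35 (95% interval from -0.52 to 1.09; adjusted p = 0.775), which did not pass the test.

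The other tested Igfbp5 probe set, rc_AI029920_s_at, gave 56.8 and 39.3 in C6 slow, 4.83 and 4.32 in C6 fast, 38.6 and 45.9 in C6SPGFP slow and 16.97 and 19.3 in C6SPGFP fast cells. Here C6 fast cells were lowest and C6SPGFP fast cells intermediate, whereas on M62781_at the 2 fast groups overlapped. It fell by 2.14 ± 0.24 (SE; 4.40-fold; limma adjusted p = 0.000931) in C6, and in C6SPGFP its change of -0.94 ± 0.24 did not pass (adjusted p = 0.155). The difference of these changes was 1.20 ± 0.34 (adjusted p = 0.115). The remaining probe set, rc_AI070577_at, stayed between 0.76 and 3.19 on all arrays and was not tested.

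The call of Igfbp5 in C6 held on both probe sets whichever array was left out, with adjusted p-values from 0.00303 to 0.0152. In C6SPGFP the call was lost when slow replicate 2 (limma adjusted p = 0.148), fast replicate 1 (0.106) or fast replicate 2 (0.0617) was left out. In order of level, M62781_at ran from C6 slow through C6SPGFP slow to the fast groups, and the 2 fast groups overlapped. On rc_AI029920_s_at the slow groups overlapped with each other, and C6SPGFP fast cells lay clear below them and clear above C6 fast cells.

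**Figure D2:**
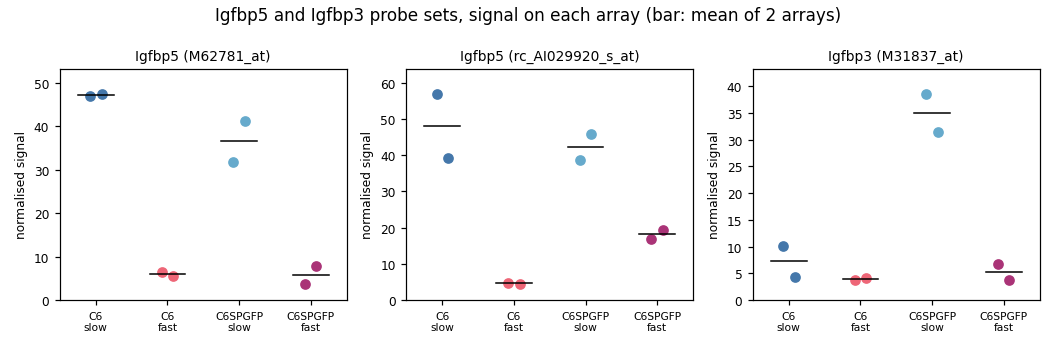
Normalised signal (y axis, linear, from 0) on each of the 2 arrays of the 4 groups (x axis) for 2 probe sets of Igfbp5 and 1 of Igfbp3; bars are group means. Fast cells lie below slow cells of the same set in all 3 panels, and Igfbp3 is high only in C6SPGFP slow cells, at 38.5 and 31.5. For Igfbp3 in C6 the means of slow and fast cells, 7.25 and 3.93, were both under the filter, and the change was not called.

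Igfbp3, the main carrier of IGFs in serum, had a signal of 10.1 and 4.36 in C6 slow, 3.69 and 4.18 in C6 fast, 38.5 and 31.5 in C6SPGFP slow and 6.72 and 3.71 in C6SPGFP fast cells on probe set M31837_at. Only C6SPGFP slow cells stood clear, with the other 6 arrays at 10.1 or below. The mean over the other groups was 5.47, under the filter, so this probe set was tested only because of the group in which it was high. It fell by 1.71 ± 0.28 (SE, n = 2 per group; 3.26-fold; limma adjusted p = 0.0248) from slow to fast C6SPGFP cells, with a change of -0.33 ± 0.28 in C6 (adjusted p = 0.614). The difference between these changes, -1.38 ± 0.40, did not pass (adjusted p = 0.126). Its second probe set, rc_AI009405_s_at, was not tested; it gave 5.09 and 5.26 in C6SPGFP slow cells and 1.60 to 2.29 on the other arrays, the same order at signals not shown to be above background. The call in C6SPGFP ended without either slow array (adjusted p = 0.15 without replicate 1 and 0.146 without replicate 2) and without either fast array (0.075 and 0.195).

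Windows of 250 bases upstream of the RefSeq start of Igfbp5 (chr9:81914188-81914437, minus strand) and Igfbp3 (chr14:86277945-86278194, minus strand), in assembly GRCr8, are shown because both genes fell in fast C6SPGFP cells. They are written 5′ to 3′ on the gene's strand, and capitals mark the GC box GGGCGG and the E-box CANNTG, searched on both strands.
Igfbp5: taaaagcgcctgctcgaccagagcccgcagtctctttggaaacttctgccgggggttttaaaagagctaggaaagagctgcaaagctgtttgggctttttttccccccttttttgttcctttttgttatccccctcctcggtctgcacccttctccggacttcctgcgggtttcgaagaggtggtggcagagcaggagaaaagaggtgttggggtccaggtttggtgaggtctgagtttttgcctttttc
Igfbp3: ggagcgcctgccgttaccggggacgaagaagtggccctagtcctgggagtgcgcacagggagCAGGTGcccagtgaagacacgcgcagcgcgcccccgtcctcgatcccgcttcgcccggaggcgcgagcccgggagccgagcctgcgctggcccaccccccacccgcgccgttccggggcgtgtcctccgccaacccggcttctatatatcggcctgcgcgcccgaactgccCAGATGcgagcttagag
The Igfbp3 window was richer in GC, at 71.6% against 51.6% for Igfbp5 and a median of 51.2% over 33469 such windows. It held 2 E-boxes, which 65.5% of all windows have at least once, and the Igfbp5 window held neither motif. The TATA box letters TATAAA, the AP-1 letters TGANTCA and the AP-2 letters GCCNNNGGC, also searched on both strands, were in neither, against 12.9%, 6.34% and 12.6% of all windows. E-box, AP-1 and AP-2 letters read the same on both strands and were counted once per place, and no marked motif overlapped another.

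The remaining binding proteins passed in no comparison. Igfbp6, which prefers IGF-II, lay between 66.7 and 85.3 on the 8 arrays of its probe set M69055_at, with fast minus slow changes of 0.05 ± 0.20 (SE; 95% interval from -0.40 to 0.50) in C6 and 0.07 ± 0.20 (from -0.38 to 0.52) in C6SPGFP. All neighbouring groups overlapped in order of level. Igfbp2, a binding protein of the developing brain and the neighbour of Igfbp5 on the chromosome, lay between 56.5 and 90.9 on probe set M91595exon_s_at. Both C6 fast arrays, at 78.4 and 90.9, lay above both C6 slow arrays, at 56.5 and 73.0, without a call. Its changes were 0.36 ± 0.20 (from -0.11 to 0.82) in C6 and -0.14 ± 0.20 (from -0.60 to 0.33) in C6SPGFP. Probe set J04486_at of Igfbp2 ranged from 5.24 to 14.9 with no call, and A09811cds_s_at stayed at or below 3.45 and was not tested.

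Among the ligands, Igf1 gave the largest increase in C6 on a single probe set. The signal of M15481_g_at was 18.3 and 20.5 in C6 slow, 158 and 68.2 in C6 fast, 65.8 and 75.0 in C6SPGFP slow and 66.1 and 54.7 in C6SPGFP fast cells. The C6 slow arrays were the low ones, and the 2 C6 fast arrays differed from each other by more than any other pair. Igf1 rose by 2.04 ± 0.34 (SE, n = 2 per group; 4.11-fold; limma adjusted p = 0.00783) from slow to fast C6 cells, and the call held whichever array was left out (adjusted p from 0.00172 to 0.0482). In C6SPGFP its change was -0.20 ± 0.34 (adjusted p = 0.904).

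The change of Igf1 was the single one of 18 that differed between the sets by the test of the difference, at -2.24 ± 0.47 (C6SPGFP minus C6; limma adjusted p = 0.0386), where 3.82% of all probe sets were called (2.71% higher and 1.11% lower). That call ended without any one of the 6 arrays other than C6 fast (adjusted p of 0.109 and 0.0718 without C6 slow replicates 1 and 2, 0.0989 and 0.158 without C6SPGFP slow replicates 1 and 2, and 0.116 and 0.149 without C6SPGFP fast replicates 1 and 2). It also ended with a pseudocount of 32 (adjusted p = 0.0594), without the filter (0.0758) and without a trend in the moderation (0.0535).

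The other 4 probe sets of Igf1 did not share this pattern in full. D00698_s_at gave 7.90 and 3.87 in C6 slow and 44.6 and 9.41 in C6 fast cells, a change of 1.14 ± 0.46 (SE; limma adjusted p = 0.215). That change lay mostly in C6 fast replicate 1, as replicate 2, at 9.41, was near the C6 slow array at 7.90. X06107_i_at gave 8.54 and 4.36 against 13.9 and 15.8, a change of 0.68 ± 0.48 (adjusted p = 0.52). These 2 thus pointed the same way as M15481_g_at without passing. M15481_at, from the same sequence record as M15481_g_at, had 57.5 and 17.01 in C6 slow and 18.01 and 17.8 in C6 fast cells, a change of -0.64 ± 0.48 (adjusted p = 0.551). X06107_r_at had 51.2 and 35.6 against 35.3 and 41.8, a change of -0.13 ± 0.23 (adjusted p = 0.843). Of 5 probe sets, 3 were therefore higher in C6 fast cells on both arrays and 2 overlapped, so the rise of Igf1 rests on part of its probe sets.

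**Figure D3:**
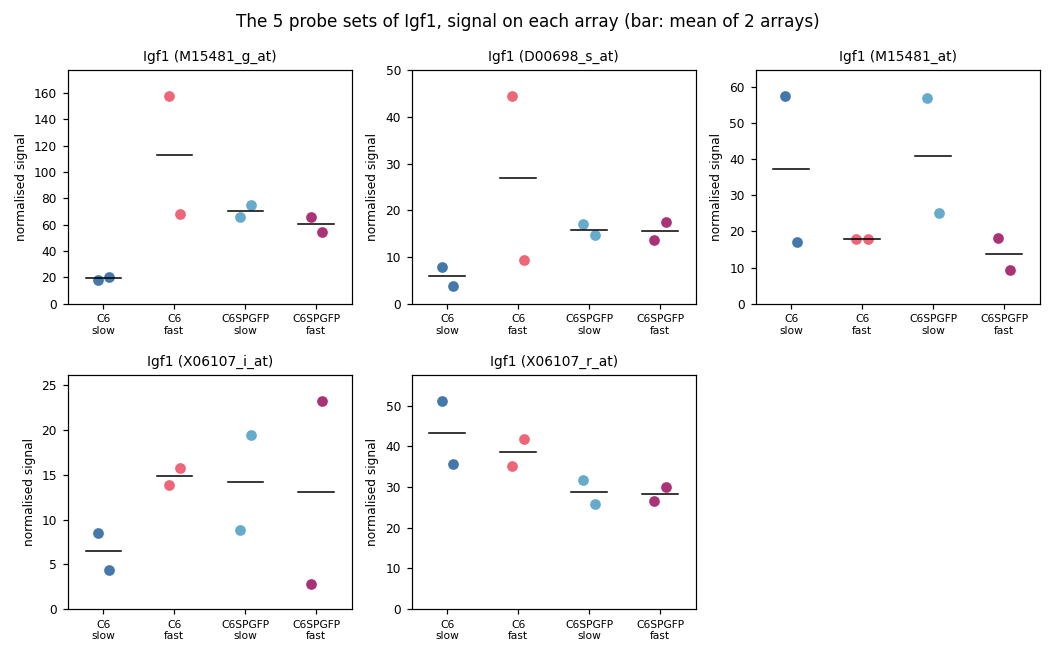
Normalised signal (y axis, linear, from 0, its own scale in each panel) on each array of the 4 groups (x axis) for the 5 probe sets of Igf1; bars are means of 2 arrays. M15481_g_at, D00698_s_at and X06107_i_at are lowest on average in C6 slow cells, while M15481_at and X06107_r_at are not.

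Igf2, the ligand prominent in fetal growth, had 6 probe sets, of which 4 were tested and none was called between fast and slow cells. On the brightest, M17960_g_at, signals were 81.0 and 84.5 in C6 slow, 85.0 and 114 in C6 fast, 107 and 80.3 in C6SPGFP slow and 98.6 and 93.1 in C6SPGFP fast cells. Groups next to each other in order of mean level overlapped, although both C6 fast arrays lay above both C6 slow arrays, with changes of 0.23 ± 0.22 (SE; 95% interval from -0.26 to 0.73) in C6 and 0.04 ± 0.22 (from -0.45 to 0.54) in C6SPGFP. M17960_at gave 41.8 and 55.6 in C6 slow, 63.5 and 68.8 in C6 fast, 55.4 and 32.5 in C6SPGFP slow and 32.5 and 25.1 in C6SPGFP fast cells. It was highest in C6 fast and on average lowest in C6SPGFP fast cells, with changes of 0.40 ± 0.27 in C6 and -0.47 ± 0.27 in C6SPGFP and adjusted p-values of 0.495 and 0.634. X16703_r_at and X17012mRNA_s_at ranged from 8.38 to 21.1 and from 9.19 to 32.7, with changes in C6 of 0.52 ± 0.28 (adjusted p = 0.368) and 0.18 ± 0.31 (adjusted p = 0.832). The change in C6 was thus positive on all 4 tested probe sets, and fast and slow C6 arrays were free of overlap on all of them but X17012mRNA_s_at, without a call. Such freedom from overlap held for 45.1% of all probe sets, and the 4 read 1 gene on the same arrays, so they are not independent. E00988mRNA_s_at, at 5.64 to 12.0, and X16703_i_at, at 0.20 to 3.67, were not tested.

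Igf2r, the receptor that clears IGF-II, was the one receptor that passed the test. Its single probe set, U59809_s_at, gave 349 and 361 in C6 slow, 598 and 678 in C6 fast, 199 and 186 in C6SPGFP slow and 290 and 273 in C6SPGFP fast cells. The 4 groups were fully apart from each other, in the order C6 fast, C6 slow, C6SPGFP fast and C6SPGFP slow, so fast cells were above slow cells in both sets and C6 above C6SPGFP cells at both speeds. Igf2r rose by 0.83 ± 0.15 (SE, n = 2 per group; 1.78-fold; limma adjusted p = 0.0112) in C6. In C6SPGFP its change of 0.53 ± 0.15 (1.44-fold) did not pass (limma adjusted p = 0.202). Its arrays did not overlap there, which held for 44.1% of all probe sets. The difference between the changes was -0.30 ± 0.21 (adjusted p = 0.575). In C6 the call was lost when slow replicate 1 (limma adjusted p = 0.0548) or fast replicate 2 (0.068) was left out, and when only the C6 arrays were fitted (0.0648).

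**Figure D4:**
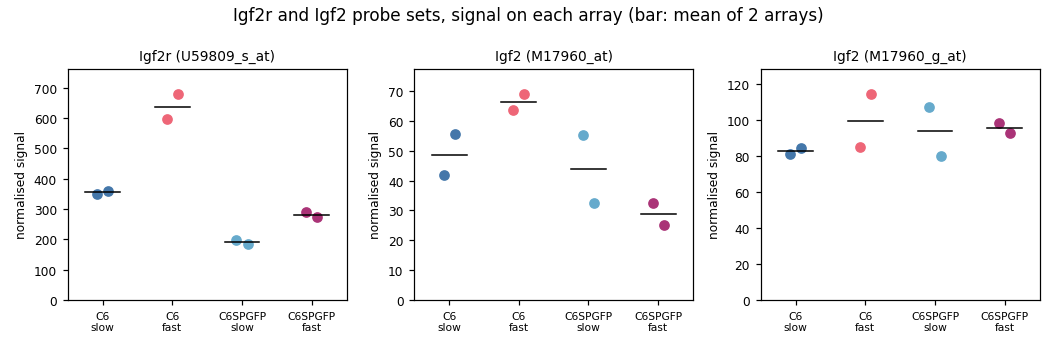
Normalised signal (y axis, linear, from 0, its own scale in each panel) on each array of the 4 groups (x axis) for the probe set of Igf2r and 2 probe sets of Igf2; bars are means of 2 arrays. The 4 groups of Igf2r do not overlap, from 186 in C6SPGFP slow to 678 in C6 fast cells, whereas on M17960_g_at of Igf2 each group overlaps with its neighbour in order of mean level.

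Igf1r, the signalling receptor, lay between 62.7 and 110 on L29232_at and between 54.7 and 95.3 on M27293_s_at. The changes on L29232_at were -0.23 ± 0.23 (SE; 95% interval from -0.76 to 0.30) in C6 and 0.36 ± 0.23 (from -0.18 to 0.89) in C6SPGFP. Those on M27293_s_at were 0.09 ± 0.28 (from -0.55 to 0.74) and -0.13 ± 0.28 (from -0.78 to 0.52). The C6 slow arrays of L29232_at lay just above the C6 fast ones, and the other pairs of fast and slow groups overlapped. Igf1r thus passed in no comparison, and the highest upper bound of these intervals was 0.89, on L29232_at in C6SPGFP.

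The upstream windows of Igf1 (chr7:24172282-24172531, plus strand) and Igf2r (chr1:50526628-50526877, plus strand), from RefSeq on GRCr8, are shown because both genes rose in fast C6 cells. They are written 5′ to 3′ with the same 2 motifs in capitals.
Igf1: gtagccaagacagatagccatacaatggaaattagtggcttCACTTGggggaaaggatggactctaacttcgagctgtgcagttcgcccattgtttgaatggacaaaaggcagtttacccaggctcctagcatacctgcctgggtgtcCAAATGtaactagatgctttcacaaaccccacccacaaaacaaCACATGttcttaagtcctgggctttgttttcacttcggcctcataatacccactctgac
Igf2r: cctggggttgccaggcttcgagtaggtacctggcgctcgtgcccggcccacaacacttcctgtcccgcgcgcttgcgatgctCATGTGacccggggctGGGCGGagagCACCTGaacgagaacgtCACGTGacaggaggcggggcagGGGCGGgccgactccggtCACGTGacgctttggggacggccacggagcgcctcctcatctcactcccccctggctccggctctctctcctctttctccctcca
The Igf2r window had a GC content of 68.0%, 2 GC boxes, found in 30.5% of all windows, and 4 E-boxes. The Igf1 window had a GC content of 46.8%, no GC box and 3 E-boxes. Neither held the TATA, AP-1 or AP-2 letters.

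The comparison of C6SPGFP with C6 cells at the same speed asked how the sets differ. It uses the same arrays as the comparisons above, so its results are not independent of them. Among slow cells 3 of 18 probe sets were called, against 6.34% of all (3.29% higher and 3.05% lower), namely Igfbp3 and Igf1 (higher in C6SPGFP) and Igf2r (lower). Igfbp3 had passed the filter only through C6SPGFP slow cells and so had to differ here, which limits that count. Among fast cells 3 of 18 (16.7%) were called, against 15.6% of all (8.29% higher and 7.3% lower), namely Igf2r and Igf2 (lower) and Igfbp5 (higher), so there the share of members was near that of all probe sets. Arrays did not overlap for 9 of 18 in slow and 7 of 18 in fast cells, against 51.4% and 55.6% of all.

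Igf2r was lower in C6SPGFP at both speeds, by values of -0.86 ± 0.15 (SE, n = 2 per group; 1.81-fold; limma adjusted p = 0.0123) in slow and -1.15 ± 0.15 (2.23-fold; adjusted p = 0.00122) in fast cells. The call in fast cells held whichever array was left out (adjusted p from 0.00205 to 0.015), but with the deposited scaling, where C6SPGFP fast replicate 1 keeps its own scale, the value was 0.005. In slow cells the call was lost when C6SPGFP slow replicate 1 (limma adjusted p = 0.0674) or 2 (0.108) was left out. Igfbp3 was higher in C6SPGFP slow than C6 slow cells by 1.52 ± 0.28 (adjusted p = 0.0171), again on a probe set tested only through that group. Its call was lost when C6 slow replicate 2 (limma adjusted p = 0.0713), C6SPGFP slow replicate 1 (0.117) or C6SPGFP slow replicate 2 (0.0882) was left out. In fast cells Igfbp3 gave 0.14 ± 0.28, with both sets at 6.72 or below.

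Igf1 was higher in C6SPGFP slow than C6 slow cells on M15481_g_at, by 1.52 ± 0.34 (SE; limma adjusted p = 0.0344), and its change among fast cells was -0.72 ± 0.34 (adjusted p = 0.198). In C6 fast cells its 2 arrays were 158 and 68.2, against 66.1 and 54.7 in C6SPGFP fast cells. The change among fast cells thus lay mostly in C6 fast replicate 1, as replicate 2 was near the C6SPGFP array at 66.1. The call in slow cells ended without either C6 slow array (adjusted p = 0.129 and 0.0836), either C6SPGFP slow array (0.131 and 0.196) or either C6SPGFP fast array (0.0732 and 0.0635), without the filter (0.0658) and with a pseudocount of 32 (0.0639). X06107_r_at of Igf1 gave the opposite sign in slow cells, -0.47 ± 0.23 (adjusted p = 0.304).

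Igfbp5 was higher in C6SPGFP fast than C6 fast cells on rc_AI029920_s_at, by 1.05 ± 0.24 (SE; limma adjusted p = 0.0199), but was at -0.04 ± 0.25 on M62781_at. Both fast means of M62781_at, 5.98 and 5.78, lay under the filter of 8, so it could show little difference between fast cells. The call on rc_AI029920_s_at ended without C6 fast replicate 1 (adjusted p = 0.0607) or 2 (0.0703), without C6SPGFP fast replicate 1 (0.0973) or 2 (0.107) and with a pseudocount of 32 (0.0659). Igf2 was lower in C6SPGFP fast cells on M17960_at, by a value of -1.02 ± 0.27 (adjusted p = 0.0357), which turned to 0.25 under the deposited scaling, while M17960_g_at gave -0.04 ± 0.22. Its call ended without C6 fast replicate 1 (0.103) or 2 (0.13), without C6SPGFP fast replicate 1 (0.0848) or 2 (0.191), without the filter (0.0687) and with a single scaling factor per array (0.108). Of the 6 calls between the sets, that of Igf2r in fast cells was the one that no single array ended.

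X17012mRNA_s_at of Igf2 also lay higher in C6SPGFP than C6 cells without overlap at either speed, at 32.7 and 26.6 against 17.2 and 9.19 in slow and 27.2 and 29.1 against 22.3 and 10.4 in fast cells. Its changes of 0.85 ± 0.31 (SE; limma adjusted p = 0.157) and 0.61 ± 0.31 (adjusted p = 0.232) did not pass, and their sign was opposite to that of M17960_at at both speeds. Freedom from overlap between the sets held for 51.4% of all probe sets in slow and 55.6% in fast cells.

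**Figure D5:**
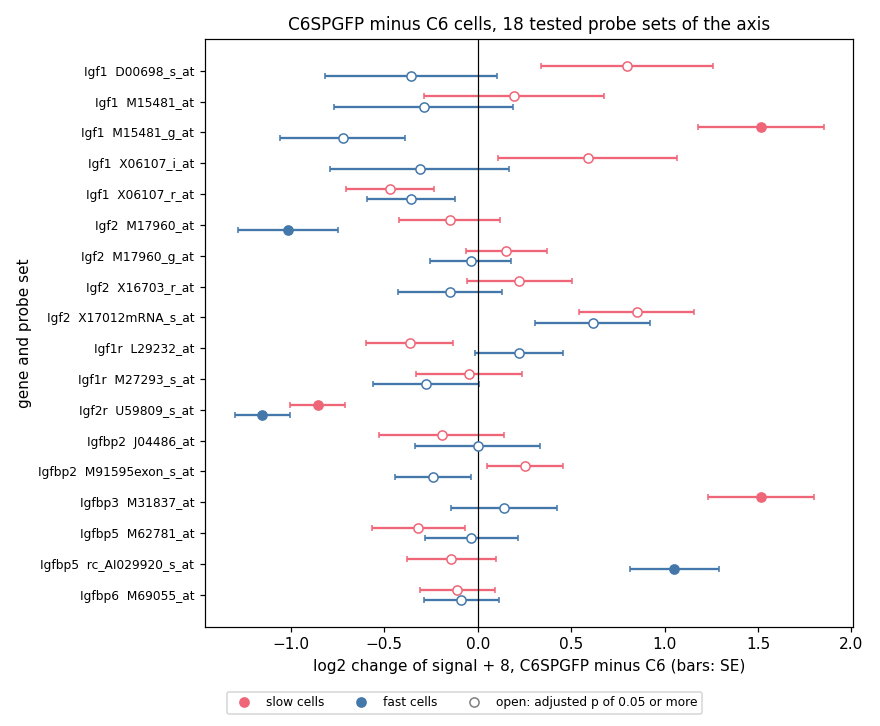
The log2 change of signal + 8 from C6 to C6SPGFP cells (x axis) is shown for the 18 tested probe sets (y axis) among slow (red) and fast (blue) cells, with SE as bars; filled points have an adjusted p below 0.05. Igf2r lies left of 0 at both speeds, at -0.86 and -1.15, and Igfbp3 lies at 1.52 among slow cells and at 0.14 among fast cells.

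Few genes of the wider pathway passed the test, and those that did in C6 mostly fell. Of 91 listed genes around the axis 65 had a probe set and 61 were tested, on the probe set with the highest mean. In fast C6 cells 1 rose and 6 fell (11.5%, against 6.66% of all probe sets), and none passed in C6SPGFP by limma, where the lowest adjusted p over the lists was 0.136 and 6 of the 61 had an unadjusted p below 0.05. Between the sets 2 of 61 were higher and 1 lower in C6SPGFP slow cells (4.92%, against 6.34% of all) and 6 were higher and 2 lower in C6SPGFP fast cells (13.1%, against 15.6%), shares near or below that of the array. The change differed between the sets for 2 of 61 (3.28%, against 3.82%). The median change of the 61 was -0.01 in C6 and -0.04 in C6SPGFP, against 0.01 and -0.02 over all. The 61 were the brightest probe sets of their genes, whereas the shares of all include dimmer ones. With a filter at the 50th percentile of signal, 396 of 4370 were called in C6, against 445 of 6684. The lists were also chosen with earlier results of these data known, so these shares are not a like comparison.

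Of 11 binding protein relatives, processing enzymes and IGFBP proteases, 2 fell in C6 fast cells. Ccn1, a matrix-associated protein with a binding-protein-like domain, went from 252 and 165 to 58.2 and 78.4 (log2 change -1.49 ± 0.33, SE; limma adjusted p = 0.0303). Furin, a proprotein convertase, went from 606 and 445 to 296 and 302 (-0.78 ± 0.17; adjusted p = 0.0303). Between the sets, the convertase Pcsk6 was higher in C6SPGFP slow cells by 0.99, and the proteases Plat and Ctsd were higher in C6SPGFP fast cells by 1.61 and 0.86.

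Of 16 genes of the insulin receptor family, adaptors and phosphatases, 1 rose and 1 fell in fast C6 cells. Grb14, an adaptor that inhibits insulin receptor signalling, had signals of 148 and 254 in C6 slow, 30.3 and 25.5 in C6 fast, 168 and 177 in C6SPGFP slow and 257 and 234 in C6SPGFP fast cells. Only the C6 fast arrays were low, with a change of -2.50 ± 0.25 (SE; 5.64-fold; limma adjusted p = 0.000497) and a difference between the sets of 2.99 ± 0.35 (adjusted p = 0.00221). Arrb1, a beta-arrestin, rose from 31.5 and 39.6 to 92.6 and 148 in C6 (1.53 ± 0.26; adjusted p = 0.00938). It was lower in C6SPGFP than C6 fast cells (-1.72), where Grb14 and the adaptor Grb2 were higher (2.82 and 0.59).

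In the PI3K, Akt and mTOR branch 1 of 18 fell in C6 fast cells, Eif4ebp1, the translation repressor that mTOR inactivates, from 1012 and 766 to 585 and 491 (log2 change -0.71 ± 0.17, SE; limma adjusted p = 0.0403). Its change differed between the sets by 1.20 ± 0.24 (adjusted p = 0.0277), it was lower in C6SPGFP slow than C6 slow cells (-0.75), and the kinase Gsk3b was lower in C6SPGFP than C6 fast cells (-1.06). Of 8 genes of the Ras and MAP kinase branch 2 fell in C6 fast cells, the ERK phosphatase Dusp6 (-1.24 ± 0.26; adjusted p = 0.0239) and the Ras GTPase activator Rasa1 (-0.92 ± 0.22; adjusted p = 0.0407), and Dusp6 was higher in C6SPGFP than C6 fast cells (1.62). Of 8 genes of the growth hormone and Stat5 branch none passed between fast and slow cells in limma, with a lowest adjusted p of 0.228 in C6 and 0.637 in C6SPGFP (1 and 0 at an unadjusted p below 0.05). Socs2, a suppressor of growth hormone and IGF-I signalling, was higher in C6SPGFP cells, though its C6 signals lay under the filter, so that it was tested only through the C6SPGFP cells and had to differ between the sets. It gave 2.0 to 4.8 on the C6 arrays and 15.4 to 23.3 on the C6SPGFP arrays, a change of 1.52 ± 0.27 (adjusted p = 0.0129) in slow and 1.24 ± 0.27 (adjusted p = 0.0148) in fast cells.

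For the 4 members whose group means spanned at least 1 on the log2 scale, the genes of most similar pattern over the 8 arrays were sought by Pearson's r among 1091 probe sets with as large a span. The arrays fall into 4 groups of 2, so these r describe group patterns more than 8 independent points. For Igfbp5 (rc_AI029920_s_at) they were the lysosomal lipase Lipa (r = 0.989), Ddah1 (0.985) and Clba1 (0.967). For Igf2r they were the adhesion receptor Adgrl2 (0.988), the helix-loop-helix inhibitor Id3 (0.98) and the glutathione transferase Gsta4 (0.979). Igfbp3 passed the filter only through C6SPGFP slow cells, and so did Kcnj10, with group means of 92.9 there and 5.16 to 6.99 elsewhere, so a high r between them follows from that group. For Igfbp3 the 3 were the glial potassium channel Kcnj10 (0.966), Pik3r1 (0.962), which encodes the regulatory subunit of PI3K, and the cGMP-dependent kinase Prkg2 (0.945). The mean signal of Pik3r1 was 63.1 in C6SPGFP slow cells, against 32.6 in C6 slow, 27.4 in C6 fast and 26.2 in C6SPGFP fast cells. For Igf1 (M15481_g_at) they were the sulfotransferase Chst10 (0.959), the glypican Gpc6 (0.9) and Hsd17b8 (0.883).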

How the data were processed

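RNA was measured on 8 arrays, 2 for each of 4 groups taken from the sample titles. The values deposited by the authors are signal intensity per probe set on a linear scale (0 to 14287.9), and no source used here names the software behind them. Arrays were quantile normalised over 8799 probe sets, 59 controls were then left out, and log2(signal + 8) was fitted with 4 group means in limma 3.58.1 (R 4.3.3; lmFit, eBayes with a trend), with 4 residual and 4.49 prior degrees of freedom. The fit and its calls were tested on simulated data. Of the probe sets, 6684 were tested and 2056 lay below the filter.

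Gene names were taken from the probe annotation of the platform, where 7018 probe sets had 1 symbol, 308 several and 1473 none. Of the first, 6994 were updated by Entrez identifier from RefSeq GRCr8, and all 9 members had a promoter window there.

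The members and gene lists were chosen with earlier results of these data known. Text on listed genes named called ones, at most 3 per direction, list and comparison. For the members named for likeness, the probe set with the highest mean was used. Alternatives covered scaling, pseudocount, filter, moderation, samples in the fit, a replicate block and leaving out each array.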

Additional observations from a re-analysis of the deposited data

Results flagged for a closer look

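The fast minus slow change of Igf1 on probe set M15481_g_at differed between the sets: the difference, C6SPGFP minus C6, was -2.24 ± 0.47 (SE; limma adjusted p = 0.0386), from a change of 2.04 in C6 and -0.20 in C6SPGFP. Both C6 fast arrays were above both C6 slow arrays, while the C6SPGFP groups overlapped. Over its 16 alternatives the adjusted p ran from 0.00482 to 0.706 and the difference from -2.82 to -0.95. On the other 4 probe sets of Igf1 the difference was -1.16, -0.48, -0.90 and 0.11, none of them called. With 2 arrays a group, no array could be tested as an outlier.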

How the results depend on the processing

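With a pseudocount of 4 and with the replicate block all 13 calls kept their side of the threshold and their direction. The numbers in the titles were not shown to pair the arrays: deviations from the group mean of arrays with the same number correlated at 0.266 between the C6 groups, 0.104 between the C6SPGFP groups and from -0.127 to 0.028 otherwise. With the replicate block 4, 2, 1, 3 and 3 members were called in C6, in C6SPGFP, on the difference, and between the sets in slow and fast cells, the same numbers as without it, and over all probe sets 424, 87, 235, 392 and 989, against 445, 93, 255, 424 and 1042.

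With the signals as deposited, where C6SPGFP fast replicate 1 has a scale of its own, the median change over the array was 1.03 in C6SPGFP, 1.07 on the difference and 1.10 between fast cells, and all 13 calls were lost, so that limma called 0 members in each of the 5 comparisons (unadjusted p below 0.05 for 3, 0, 0, 1 and 2). All probe sets called there numbered 23, 21, 25, 1 and 186, and 100% of those in C6SPGFP were higher, against 76.3%. The shares higher were 52.2% in C6, 96% on the difference, 100% in slow and 93.5% in fast cells, against 40.4%, 71%, 51.9% and 53.2%. There Igf2 (M17960_at) turned to 0.25 and Igf2r to 0.005 between fast cells. On the difference 0 members were called by limma with a pseudocount of 32, without the filter and without a trend (unadjusted p below 0.05 for 4, 5 and 4). A single scaling factor kept 12 of the 13 calls, no trend 12, no filter 10 and a pseudocount of 32 10. Under a filter set at the 50th percentile of signal, 8 members were tested, and 2 were called in C6 and 0 in C6SPGFP (1 at an unadjusted p below 0.05). The probe sets of Igfbp5 and Igfbp3 were no longer tested there, and all 7 calls on probe sets still tested were kept. Leaving out 1 array gave 3 to 4 calls in C6, 0 to 2 in C6SPGFP, 0 to 1 on the difference, 0 to 3 in slow and 1 to 3 in fast cells; where limma called 0, 3 to 6 members had an unadjusted p below 0.05.

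Against the brightest probe set of the gene, Igf1 turned sign in C6 on M15481_at (-0.64) and X06107_r_at (-0.13), on the difference on X06107_r_at (0.11) and between slow cells on X06107_r_at (-0.47), and Igfbp5 between fast cells on M62781_at (-0.036). The cause was not tested. Signals near the pseudocount, such as those of Igfbp5 in fast cells, limit how large a fall can be measured.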
